A study of Mus musculus with 2 samples.

Results

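The data describe 10 genes of the interleukin-6 (IL-6) family across the cell classes of mouse pancreatic tumours. They are the ligands Il6, Il11, Lif and Osm, the receptor chains Il6ra, Il6st, Lifr and Osmr, the transcription factor Stat3 and the feedback inhibitor Socs3. The genes were chosen by name, and all 10 were found among the 32285 genes of the deposited matrices. KPC pancreatic cancer cells had been implanted into the pancreas, and tumours were taken on day 21. Control mice were Porcnfl/fl (WT) and knockout mice were Csf1r-Cre;Porcnfl/fl (KO), so the floxed Porcn allele was present in both groups and Cre only in the knockout group. Tumours of 5 mice were pooled per genotype before a single 10x Genomics 3′ library was made. Porcn encodes Porcupine, an enzyme that Wnt proteins need in order to be secreted. Csf1r-Cre acts in cells that express Csf1r, chiefly monocytes, macrophages and other myeloid cells, and the implanted tumour cells did not carry it.

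IL-6 family cytokines signal through receptor complexes that share gp130, the product of Il6st. Il6 and Il11 first bind a private chain (Il6ra, Il11ra1), whereas Lif uses Lifr and Osm uses Osmr or Lifr together with gp130. Janus kinases on these chains phosphorylate STAT3, which enters the nucleus and switches on acute phase genes and Socs3, and Socs3 protein then blocks the receptor. In pancreatic cancer the family is known for signals between tumour cells, which can release Lif, and fibroblasts, whose inflammatory state is marked by Il6.

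There is 1 library per genotype, so no difference below has a replicate check and no p-value is given. The values compare these 2 libraries, not the genotypes. Levels are unique molecular identifiers (UMIs, counted RNA molecules) of a gene per 1000000 UMIs of the cell class (CPM). Each carries an exact 95% Poisson interval, and ratios carry an exact 95% conditional interval. All intervals cover counting error only, and they treat cells as alike. A ratio is called past the size rule at 1.5-fold, and it was computed for genes with at least 20 UMIs over both libraries in the 5 classes that held at least 100 cells in each library. Kits of this type count 3′ ends, so levels of different genes are not per length and are compared only within a gene.

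The control matrix held 13766 barcodes and 173934025 UMIs, the knockout matrix 12251 barcodes and 137527647 UMIs. A total of 46 barcodes occurred in both. After filters and removal of called doublets, 11516 control and 10467 knockout cells were kept, with median depths of 12167.5 and 10109 UMIs. Classes were rebuilt by clustering without the 10 genes and named from markers, so the ending "-like" is used. The 5 compared classes were epithelial/tumour-like (9438 control and 5763 knockout cells), fibroblast-like (566 and 709), monocyte/macrophage-like (509 and 549), neutrophil-like (293 and 185) and T-like (191 and 1638). In each of them the summed markers of its own list were higher than those of the other 4 lists in both libraries. Because clusters were named from these same lists, that is no independent check of the names. The epithelial/tumour sum came mainly from Krt8, Krt18, Krt19 and Cdh1. In that class Epcam was at 6.77 and 20.1 CPM, Krt7 at 8.73 and 3.52 CPM and Cldn4 at 0.560 and 1.65 CPM. Porcn itself was too sparse to check the labels. Monocyte/macrophage-like cells held 8 control UMIs (3.27 CPM, 1.41 to 6.44) and 4 knockout UMIs (1.43 CPM, 0.389 to 3.65), and neutrophil-like cells held 0 in both, which allows up to 3.63 CPM in control and 6.50 CPM in knockout at a floor of 3 counts.

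By GENCODE M21 on GRCm38, Il6 lies at chromosome 5, 30013114 to 30019981 (+), Il11 at chromosome 7, 4772373 to 4782859 (-), and Socs3 at chromosome 11, 117966079 to 117970047 (-). Lif (4257557 to 4272514, +) and Osm (4236420 to 4241026, +) lie close together on chromosome 11, where Stat3 also lies (100885098 to 100939540, -). Lifr (7090614 to 7197489, +) and Osmr (6813577 to 6874969, -) are both on chromosome 15. Il6ra lies at chromosome 3, 89864059 to 89913196 (-), and Il6st at chromosome 13, 112464070 to 112510086 (+).

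Promoter sequences are shown for the fibroblast ligand Il6, the tumour-cell ligand Il11 and the STAT3 target Socs3, to show where letters matching motifs of the pathway's factors lie in genes with different sources. They are the 250 bases before the RefSeq start site on GRCm38.p6, written 5′ to 3′ on the gene's strand. Capitals mark matches, on either strand, to TTCNNNGAA (STAT), TGANTCA (AP-1), TGACGTCA (CRE), TTGNGCAA (C/EBP) or GGGANTTTC (NF-kB). They lie at chr5:30012864-30013113 (+ strand), chr7:4778142-4778391 (- strand, the downstream one of 2 listed starts) and chr11:117969367-117969616 (- strand). The Il11 and Socs3 windows lie inside the GENCODE gene spans given above, whose 5′ ends are at 4782859 and 117970047.
Il6: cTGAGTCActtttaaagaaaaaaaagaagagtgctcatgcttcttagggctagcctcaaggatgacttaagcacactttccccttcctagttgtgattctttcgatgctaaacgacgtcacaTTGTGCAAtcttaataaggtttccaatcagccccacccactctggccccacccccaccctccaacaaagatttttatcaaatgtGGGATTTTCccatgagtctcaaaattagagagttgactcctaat
Il11: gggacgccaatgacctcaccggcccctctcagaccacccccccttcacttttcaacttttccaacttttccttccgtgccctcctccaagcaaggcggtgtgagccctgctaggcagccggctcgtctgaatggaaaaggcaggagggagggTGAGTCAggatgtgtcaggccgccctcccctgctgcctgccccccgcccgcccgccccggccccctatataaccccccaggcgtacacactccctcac
Socs3: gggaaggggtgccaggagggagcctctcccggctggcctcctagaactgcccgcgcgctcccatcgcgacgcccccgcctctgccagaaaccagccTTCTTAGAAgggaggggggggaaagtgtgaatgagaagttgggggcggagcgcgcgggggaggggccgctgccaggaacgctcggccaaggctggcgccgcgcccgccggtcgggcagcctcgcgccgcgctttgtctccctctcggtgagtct
The Il6 window held an AP-1, a C/EBP and an NF-kB match, with first bases 249, 128 and 44 before the start. The Il11 window held 1 AP-1 match 98 bases before the start, and the Socs3 window held 1 STAT match, TTCTTAGAA, 154 bases before it. Of 32851 promoters of this length in the table, 7.02% held a STAT match, 6.75% AP-1, 1.55% CRE, 2.61% C/EBP and 0.941% NF-kB. RefSeq entries matched 9 of the 10 members by symbol, not Osm, and the only other match among their 11 promoters was an AP-1 match in Lif. A match is a string of letters and no evidence of binding.

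The 4 ligands came from different cells. Il6 was mostly a fibroblast transcript, Lif and Il11 UMIs lay mostly in tumour cells, and Osm was a neutrophil and macrophage transcript. Of 131 Il6 UMIs in kept control cells, fibroblast-like cells held 58.0% (95% Clopper-Pearson interval 49.1 to 66.6), and of 136 in the knockout library they held 66.2% (57.6 to 74.1). Epithelial/tumour-like cells held 96.1% of 1455 control and 93.1% of 987 knockout Lif UMIs. They also held 99.2% of 4275 control and 96.2% of 891 knockout Il11 UMIs. That class made up 82.0% of control and 55.1% of knockout kept cells, and the shares are not adjusted for class size. Lif was at 9.31 and 9.32 CPM in it, against 8.62 and 7.64 CPM over all kept cells. In acinar-like cells Lif was at 7.44 and 4.81 CPM (4 and 22 UMIs). Neutrophil-like cells held 57.8% of 495 control and 58.3% of 554 knockout Osm UMIs, and monocyte/macrophage-like cells held 32.5% and 26.0%. With the strict cell filter (1000 genes or more and a mitochondrial share of 10% or less), the order of these Osm sources turned: neutrophil-like cells held 17.9% and 33.5%, monocyte/macrophage-like cells 43.8% and 40.6%. Under that filter neutrophil-like cells numbered 75 in control and 44 in knockout, in place of 293 and 185. Monocyte/macrophage-like cells numbered 312 and 477, in place of 509 and 549.

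**Figure D1:**
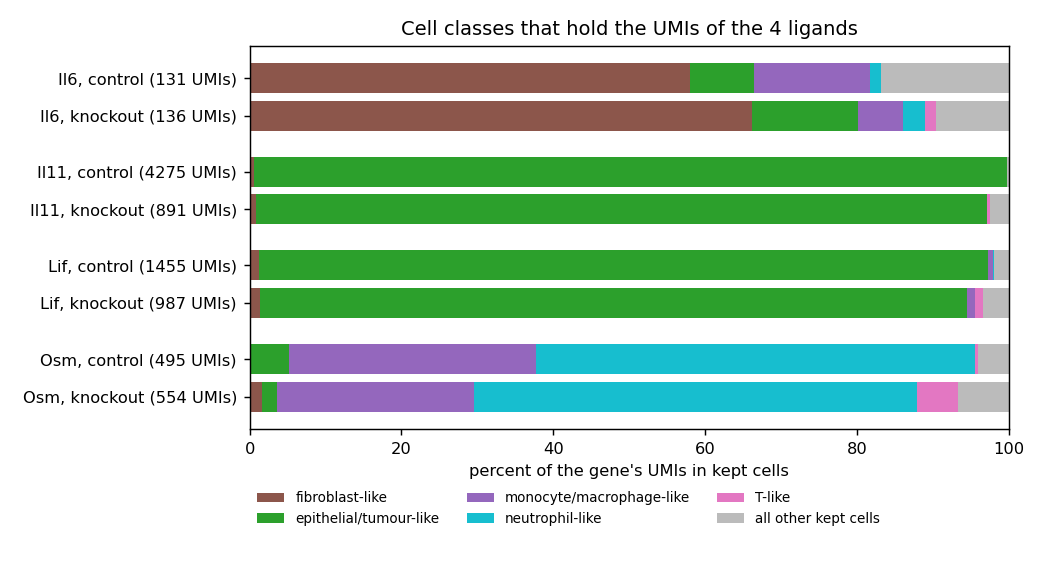
Stacked bars give the percent of each ligand's UMIs (x axis) that lay in each cell class, for the control and the knockout library (rows, with the number of UMIs). Fibroblast-like cells held 58.0% and 66.2% of Il6, epithelial/tumour-like cells over 90% of Il11 and Lif, and neutrophil-like cells 57.8% and 58.3% of Osm.

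Receptor chains were spread in another pattern. Il6st was highest in pericyte/smooth muscle-like cells (531 CPM in 52 control cells) and endothelial-like cells (506 CPM in 44 control and 303 CPM in 23 knockout cells), followed by fibroblast-like cells (193 and 288 CPM). Neutrophil-like cells had 1 and 3 Il6st UMIs (1.21 and 6.50 CPM), so that the class with the most Osm had almost no transcript of the shared receptor chain. Osmr was higher in stromal classes than in tumour cells: 113 and 148 CPM in fibroblast-like cells and 91.4 and 88.7 CPM in endothelial-like cells, against 8.34 and 6.27 CPM in epithelial/tumour-like cells. Il6ra, the private IL-6 chain, was highest, among named classes, in neutrophil-like (89.6 and 73.6 CPM), monocyte/macrophage-like (58.5 and 70.6 CPM) and type 1 dendritic (cDC1-like) cells (34 UMIs in 54 control and 56 in 116 knockout cells). The intervals of the 2 myeloid classes overlapped in the knockout library (51.0 to 103 and 61.1 to 81.1 CPM). NK-like cells held 0 Il6ra UMIs in both libraries, which allows up to 23.3 and 3.84 CPM.

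**Figure D2:**
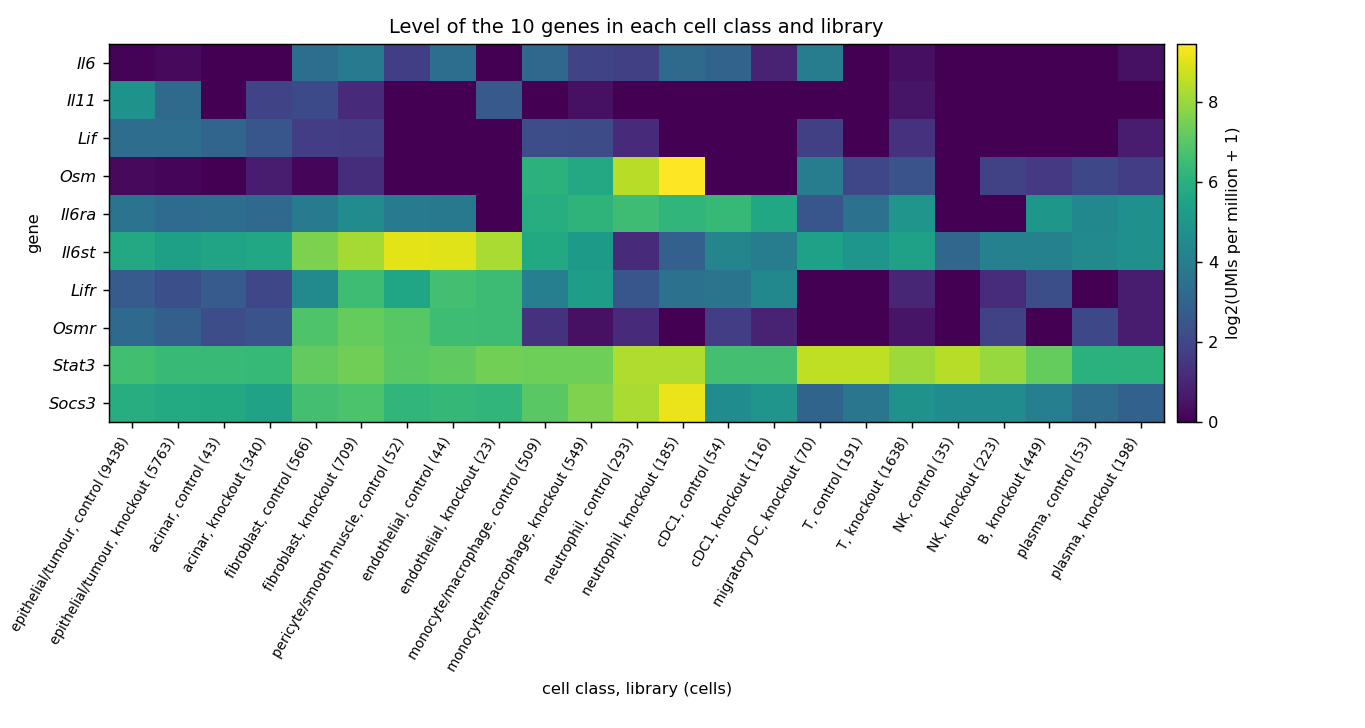
The heat map gives log2(CPM + 1) of each of the 10 genes (rows) in every class that had at least 20 cells in a library (columns, with the number of cells). Osm and Socs3 are brightest in neutrophil-like cells, Il6st in pericyte/smooth muscle-like and endothelial-like cells, and Osmr is dark in the leukocyte columns.

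Across the 5 compared classes 35 ratios could be formed, 8 of them past 1.5-fold higher in the knockout library and 4 past 1.5-fold lower. In epithelial/tumour-like cells all 10 genes had enough UMIs, 1 was higher and 1 lower, beside 9.78% and 6.99% of all 17405 genes. In fibroblast-like cells 2 of 9 were higher and 1 lower, beside 20.9% and 11.8% of 13044 genes. In monocyte/macrophage-like cells 1 of 7 was higher and 2 lower, beside 8.56% and 10.8% of 10254 genes. In neutrophil-like cells 2 of 4 were higher and 0 lower, beside 16.4% and 21.4% of 5785 genes. In T-like cells 2 of 5 were higher and 0 lower, beside 16.4% and 12.3% of 11270 genes. The medians of the members' log2 ratios were -0.33, 0.39, 0.01, 0.46 and 0.55 in that order, against -0.06, 0.13, -0.02, -0.08 and 0.02 over all genes. With so few members, these counts describe the list and set nothing apart from the background.

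**Figure D3:**
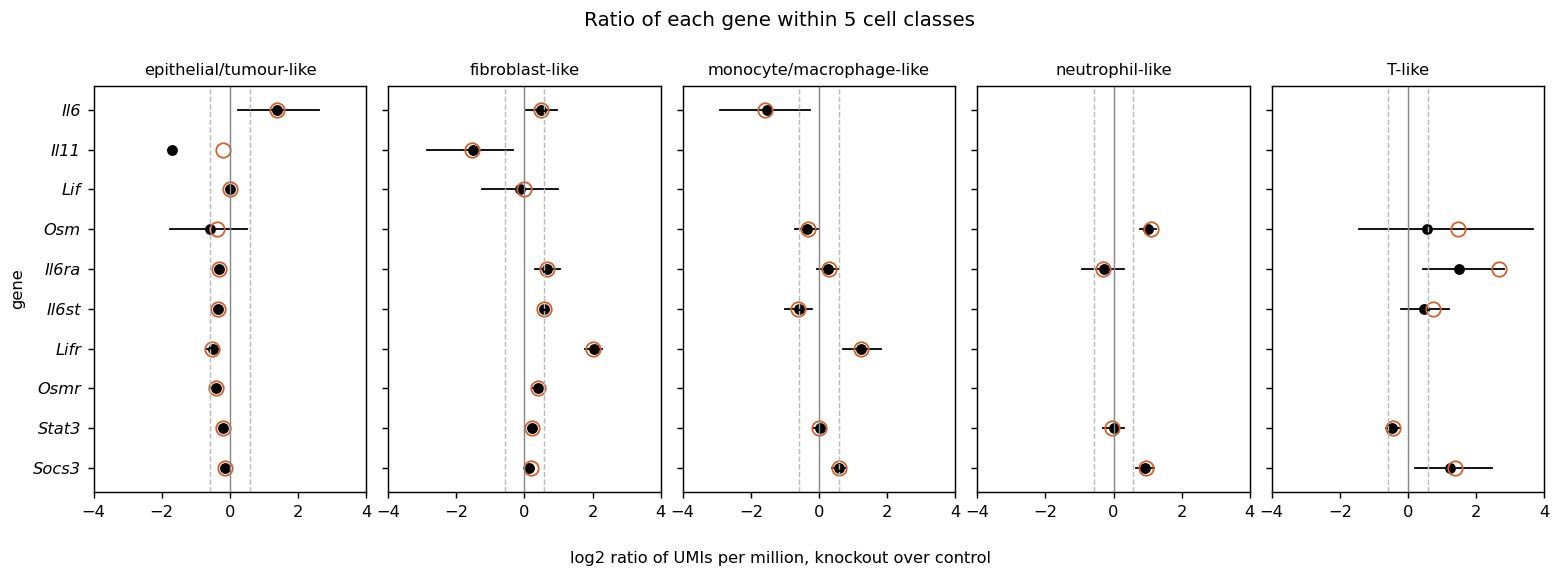
Each panel is a cell class. Black points give the log2 ratio of CPM, knockout over control (x axis), of each gene with at least 20 UMIs, black lines the 95% interval, dashed lines 1.5-fold, and open circles the ratio after the cell with the most UMIs of that gene was left out of each library. For Il11 in epithelial/tumour-like cells the black point lies at -1.70 and the open circle at -0.20.

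Il11 encodes a cytokine that acts through Il11ra1 and gp130. In epithelial/tumour-like cells it was at 28.2 CPM in the control library (27.4 to 29.1, from 4239 UMIs) and at 8.69 CPM in the knockout library (8.12 to 9.29, from 857 UMIs), a log2 ratio of -1.70 (-1.81 to -1.59). That difference rested on 1 cell. A single control cell, with 190510 UMIs in all, held 3054 Il11 UMIs, 72.0% of the class, and the next cell held 221. Without the highest cell of each library the levels were 7.90 CPM (7.46 to 8.37) and 6.88 CPM (6.38 to 7.42), a log2 ratio of -0.20 (-0.34 to -0.06). The share of cells with any Il11 UMI was 2.57% of control cells (95% Clopper-Pearson interval 2.26 to 2.91) and 2.83% of knockout cells (2.42 to 3.29). After each cell was thinned to 1000 UMIs it was 0.362% and 0.349%. The same thinned share was 0 of 182 control T-like cells, which allows up to 1.65%, and 0.0623% of knockout T-like cells (median depths 2820 and 3342 UMIs, against 13289.5 and 14980 in epithelial/tumour-like cells).

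Il11 was thus carried by few cells in both libraries. The 10 highest cells held 87.9% of the control and 72.3% of the knockout Il11 UMIs of the class. Cells with at least 10 Il11 UMIs numbered 21 of 9438 in the control library and 11 of 5763 in the knockout library. Of these, 10 in each library belonged to 1 tumour cluster, cluster 12, with Tnnt2, Hmga2 and Grem1 among its leading genes, where Il11 was at 19.95 and 25.56 CPM (1329 and 1607 cells). Another 5 control cells, the highest one among them, lay in cluster 15, with Hmga2, Krt8 and Ccnd1 among its leading genes. They held 3422 of its 3459 Il11 UMIs, and the 355 knockout cells of that cluster held 21.

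Cells with at least 10 Il11 UMIs shared other transcripts in both libraries. The genes named here are among the 12 with the largest difference in the library where that difference was smaller, on log2 of the mean per-cell CPM plus 10, against tumour cells with no Il11 UMI, among genes seen in at least 50% of the high cells of each library. They were chosen after their values were seen, and no test was made. Pthlh, which encodes parathyroid hormone-related protein, averaged 804 CPM in the control high cells against 9.84 CPM in other control tumour cells, and 643 against 11.2 CPM in the knockout library. Inhba, the activin A subunit gene, averaged 2268 against 69.7 CPM and 3283 against 122 CPM, and was seen in all 21 and all 11 high cells. The matrix gene Tnc and the hyaluronan synthase gene Has2 had log2 differences of 3.53 and 3.26 in control and 3.89 and 3.80 in knockout cells. Also among them were Kcnq5, Piezo2, Areg, Jag1, Angptl4, Dynap and Ggct, with log2 differences between 2.86 and 3.96. High cells were also deeper, with median totals of 39482 and 28657 UMIs, and the part of depth in these differences was not tested. Of the high cells, 10 of 21 in control and 10 of 11 in knockout lay in cluster 12. The cells with no Il11 UMI came from all tumour clusters. No comparison was made within cluster 12, so the part of cluster membership was not tested either.

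**Figure D4:**
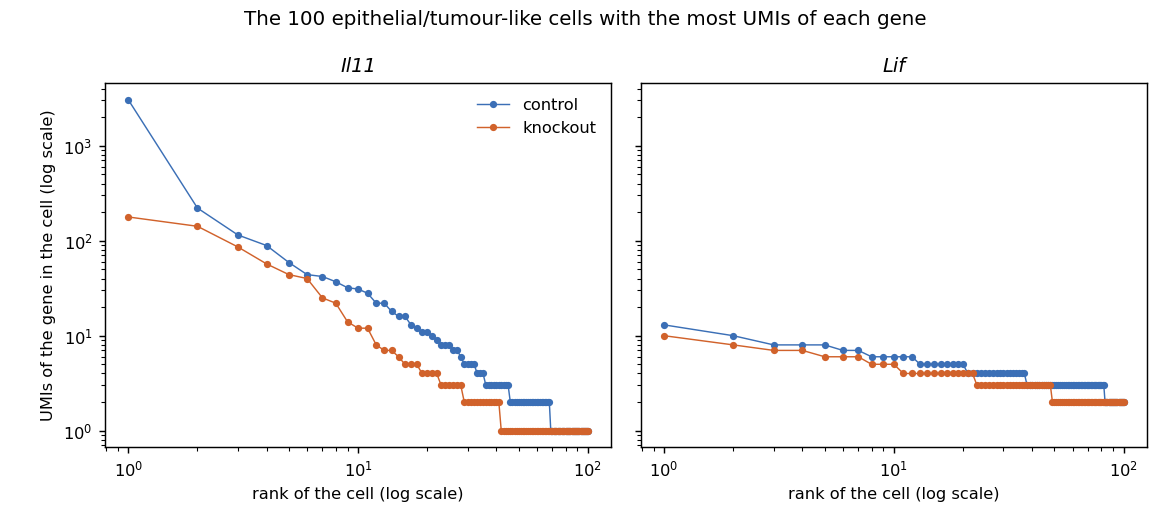
For Il11 (left) and Lif (right), the 100 epithelial/tumour-like cells with the most UMIs of the gene are ranked on a log scale (x axis) against those UMIs on a log scale (y axis). Il11 runs from 3054 in the first control cell to 221 in the second, whereas the highest Lif values are 13 in control and 10 in knockout cells.

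Lif, leukaemia inhibitory factor, had the opposite build: many cells with few UMIs. In epithelial/tumour-like cells control Lif was at 9.31 CPM (8.83 to 9.81), knockout Lif at 9.32 CPM (8.72 to 9.94), a log2 ratio of 0.00 (-0.12 to 0.12). A Lif UMI was found in 1001 control cells (10.6%) and 684 knockout cells (11.9%). After thinning to 1000 UMIs these shares were 0.809% and 1.19%, against 0 and 0.125% in T-like cells. Cluster 12 held 40.3% of the control and 46.0% of the knockout Lif UMIs of the class while it made up 14.1% and 27.9% of its cells. Within that cluster Lif was lower in the knockout library, 23.3 against 14.2 CPM (log2 ratio -0.71). When tumour clusters were weighted alike in both libraries the class ratio was -0.30. The genes whose class levels were most like those of Lif over 23 class and library values were the metallothioneins Mt2 (Pearson r = 0.92) and Mt1 (0.91) and Wdr54 (0.90).

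Other ligands of the family were tumour-cell transcripts too. Clcf1, a ligand of the ciliary neurotrophic factor receptor, was at 26.8 and 20.6 CPM in epithelial/tumour-like cells. Of the 8 other ligands listed, 7 had 20 UMIs there, 2 were past 1.5-fold higher and 1 lower, with a median log2 ratio of -0.38 against -0.06 over all genes. Over all genes 9.78% were higher and 6.99% lower. The 2 higher ones, Il12a (8 and 14 UMIs) and Ebi3 (12 and 12 UMIs), were near the detection limit.

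Il6 was sparse. In fibroblast-like cells it was at 9.54 CPM (7.52 to 11.9, 76 UMIs) in control and 13.4 CPM (10.8 to 16.5, 90 UMIs) in knockout, a log2 ratio of 0.49 (0.03 to 0.95), under the size rule. An Il6 UMI was found in 53 control cells (9.36%) and 54 knockout cells (7.62%). After thinning these shares were 1.07% and 0.852%, in the opposite order to the CPM, so no order is read from them. The T-like shares were 0 and 0.0623%. In monocyte/macrophage-like cells Il6 was lower in the knockout library, 8.18 against 2.85 CPM, from 20 and 8 UMIs (log2 ratio -1.52, -2.91 to -0.27), and 7 of the 20 lay in 1 cell. Without the highest cell of each library that ratio was -1.60 (-3.44 to -0.02). In epithelial/tumour-like cells Il6 was at 0.0733 and 0.193 CPM, from 11 and 19 UMIs in 9438 and 5763 cells. The log2 ratio was 1.39 (0.25 to 2.61). The share of cells with a UMI was 0.117% and 0.312%, beside 0 and 0.122% of the shallower T-like cells, and after thinning it was 0.0107% and 0, so it is not read as expression.

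The libraries held different fibroblast clusters. The 2 clusters with the most control fibroblast-like cells were 201 (160 control and 16 knockout cells, led by Lum, Col1a1 and Col24a1) and 203 (110 and 1, led by collagen genes and Dpt). Those with the most knockout cells were 204 (30 and 123, led by Mfap5 and Fbn1), 212 (32 and 119, led by Ptn, Svep1 and Aldh1a2), 205 (75 and 111) and 215 (40 and 83). The highest Il6 levels were in cluster 207, led by Abi3bp and Sfrp1 (39.7 CPM in 78 knockout cells, 27.8 to 54.9), and in cluster 212 (19.8 CPM in control and 24.3 CPM in knockout). Cluster 207 alone gave 36 of the 90 knockout UMIs. Over the 5 clusters with at least 20 cells in each library, weighted alike, the log2 ratio of Il6 was -0.20 in place of 0.49. Those 5 clusters held 38.2% of control and 72.8% of knockout fibroblast-like cells. By marker group, Il6 was at 14.6 and 11.4 CPM in myofibroblast-leaning fibroblasts (56 and 84 cells), 5.12 and 4.20 CPM in adventitial-type fibroblasts (140 and 124 cells) and 9.78 and 16.3 CPM in the other fibroblasts (370 and 501 cells). The interval of the ratio spanned equality in the first 2 groups, and in the other fibroblasts the log2 ratio was 0.74 (0.19 to 1.29). All 5 knockout Il6 UMIs of the adventitial-type group lay in 1 cell, whereas 9 control cells of the group had a UMI. Most control cells of that group lay in cluster 203 and most knockout cells in cluster 204.

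**Figure D5:**
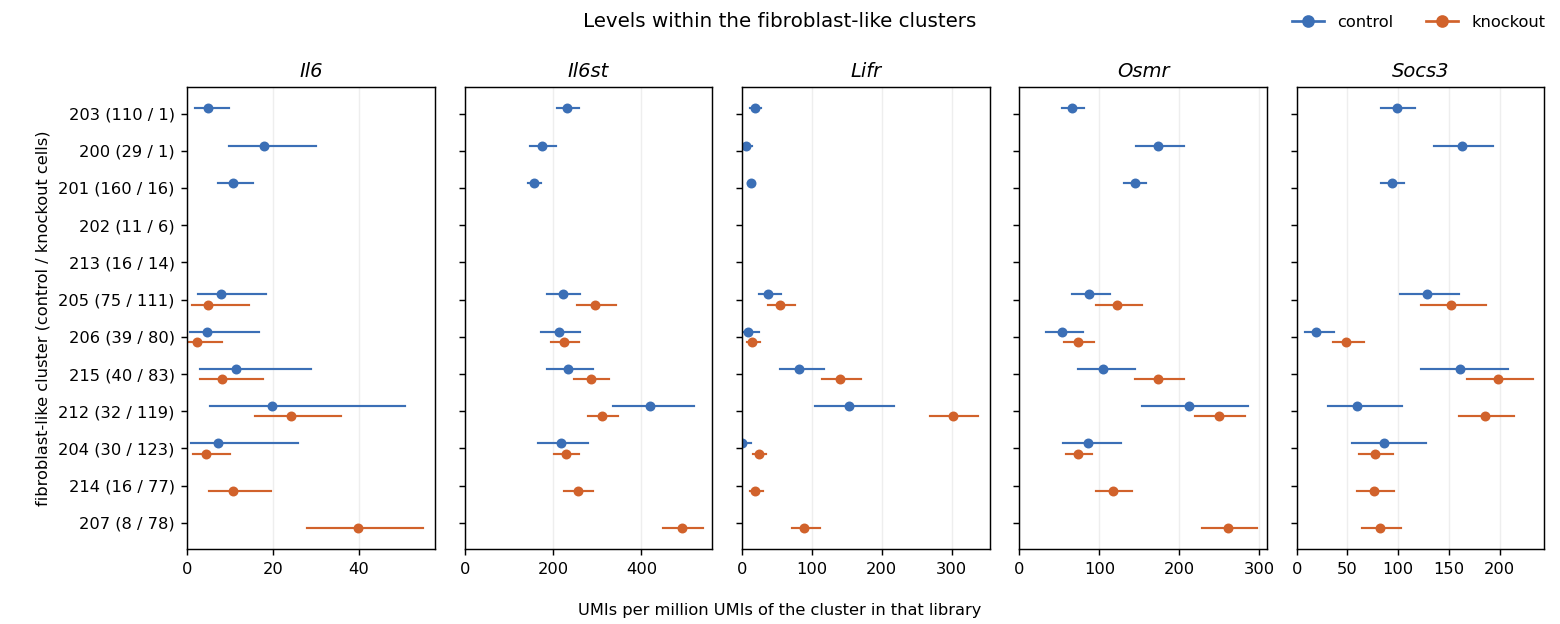
Points give the CPM (x axis) of 5 genes in each fibroblast-like cluster (rows, with control and knockout cells) for libraries with at least 20 cells of the cluster, and lines the 95% Poisson interval. Lifr is higher in the knockout library in clusters 212 and 215, while Il6 intervals overlap in each of the 5 clusters where both libraries are shown.

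Among the receptor chains of fibroblast-like cells, Lifr stood out by size. Lifr, which binds Lif, was at 22.0 CPM (18.8 to 25.5) in the control library, and the knockout library had 89.4 CPM (82.4 to 96.9), a log2 ratio of 2.03 (1.78 to 2.28). It was seen in 20.3% of control and 37.0% of knockout cells, and after thinning in 4.10% and 8.10%, against 0 of 182 and 0 of 1604 T-like cells (allowing up to 1.65% and 0.187%). In cluster 212 Lifr was at 153 and 302 CPM (log2 ratio 0.98, 0.44 to 1.56), and in cluster 215 at 81.9 and 140 CPM (0.77, 0.17 to 1.42). Over the 5 shared clusters, weighted alike, the ratio was 0.92. Lifr, which was not used in the clustering, was itself among the 10 leading genes of cluster 212 against other fibroblasts. In the other fibroblasts, outside the 2 named marker groups, Lifr was at 27.1 and 123 CPM. In myofibroblast-leaning and adventitial-type cells it lay between 11.5 and 23.5 CPM in both libraries.

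Il6st, which encodes gp130, was at 193 CPM (184 to 203) and 288 CPM (275 to 301) in fibroblast-like cells, a log2 ratio of 0.57 (0.48 to 0.67) just under the size rule. Over shared clusters it was 0.05, and in cluster 212 the order was the other way, 420 and 312 CPM (-0.43, -0.78 to -0.07). Cluster 207, with 8 control and 78 knockout cells, held 447 of the 1935 knockout UMIs, at 493 CPM. Osmr, the oncostatin M chain, was at 113 and 148 CPM (0.39, 0.25 to 0.52), and Il6ra at 14.2 and 22.5 CPM (0.66, 0.30 to 1.03). Il6ra was -0.35 on the log2 scale over shared clusters, so its direction turned. Cells with both an Il6st and an Osmr UMI made up 7.37% of control and 11.4% of knockout fibroblast-like cells after thinning to 2000 UMIs (543 and 674 cells). The product of the single shares gave 6.64% and 10.4%, both inside the intervals of the observed shares (5.31 to 9.90 and 9.12 to 14.1). For Il6st and Lifr the shares were 2.03% and 7.27%, against products of 1.74% and 6.27%. Il11ra1, the private IL-11 chain, was at 267 and 289 CPM in fibroblast-like cells. Il27ra, 1 of the 4 other receptors, was past 1.5-fold higher (29 and 46 UMIs), beside 20.9% of all genes. Over shared clusters Il27ra was at -0.52 on the log2 scale.

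In epithelial/tumour-like cells the 4 receptor chains Il6st, Lifr, Osmr and Il6ra were lower in the knockout library, none past 1.5-fold. The levels were 51.2 and 40.4 CPM for Il6st (log2 ratio -0.34, -0.40 to -0.29), 5.64 and 3.95 CPM for Lifr (-0.51, -0.69 to -0.34), 8.34 and 6.27 CPM for Osmr (-0.41, -0.55 to -0.27) and 10.98 and 8.82 CPM for Il6ra (-0.32, -0.44 to -0.20). The median over all genes was -0.06. Il6st was lower in 9 of the 11 tumour clusters with at least 20 cells in each library, and weighted alike its ratio was -0.17. Of 3 other family receptors with enough UMIs, 1 was past 1.5-fold lower and 1 higher, beside 6.99% and 9.78% of all genes. They were Il31ra, the interleukin-31 receptor chain, at 79.8 and 53.0 CPM (log2 ratio -0.59, -0.64 to -0.54), and the sparse Il27ra, with 13 and 27 UMIs (1.66, 0.66 to 2.74).

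In monocyte/macrophage-like cells Lifr was again higher in the knockout library, 15.9 CPM (11.3 to 21.8, 39 UMIs) against 37.8 CPM (30.9 to 45.7, 106 UMIs), a log2 ratio of 1.24 (0.70 to 1.81). As a mean over cells it was 0.52, under the size rule. It was most apart in cluster 103, led by the complement genes C1qa, C1qb and C1qc, with 32.8 and 91.5 CPM (1.48, 0.79 to 2.23). After thinning the share of cells with a Lifr UMI was 3.03% and 2.97%, so no difference in the share of cells was seen at that depth. Il6st was lower, 51.9 against 34.6 CPM (-0.59, -0.98 to -0.19), and it was lower in each of the 4 clusters. Il6ra was at 58.5 and 70.6 CPM, a difference within counting error (0.27, -0.05 to 0.59).

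Osm, oncostatin M, was at 346 CPM (307 to 389, 286 UMIs) in control and 699 CPM (625 to 780, 323 UMIs) in knockout neutrophil-like cells, a log2 ratio of 1.01 (0.78 to 1.25). It was 2.22 with the strict cell filter, and 0.53, under the size rule, as a mean over cells. The strict filter left 75 control and 44 knockout neutrophil-like cells, fewer than the minimum of 100 per library used elsewhere. The share of cells with an Osm UMI after thinning was 26.5% and 33.3%, with intervals that overlapped (21.4 to 32.1 and 26.6 to 40.7), against 0.178% and 0.142% of fibroblast-like cells. Neutrophil-like cells were spread differently over 3 clusters. Cluster 109, led by S100a9, Camp and Ngp, which mark immature neutrophils, had 54 control and 11 knockout cells and low Osm (103 and 171 CPM). Cluster 117, led by Cxcl2 and Acod1, had 135 and 142 cells, with Osm at 643 and 934 CPM (0.54, 0.25 to 0.83). Cluster 106, led by S100a9 and Retnlg, had 104 and 32 cells, with 505 and 481 CPM. Weighted alike over clusters 106 and 117, the ratio was 0.39. The 7 neutrophil markers together took 158965 CPM in control and 80225 CPM in knockout neutrophil-like cells, and the part of that in the class ratio was not tested.

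In monocyte/macrophage-like cells Osm was at 65.8 and 51.3 CPM (-0.36, -0.69 to -0.03). The only cluster whose interval excluded equal levels was cluster 104, led by Arg1 and Msr1, with 142 and 59.5 CPM (-1.26, -2.24 to -0.36). Osm in fibroblast-like cells was 1 UMI in control and 9 in knockout, and all 9 lay in 1 cell. The genes whose class levels were most like Osm were Arg2 (r = 0.96 over 23 values), Clec4e (0.93) and Rab20 (0.93). Lif and Osm had no class in common as their main source, and Osmr was almost absent from monocyte/macrophage-like cells (4 and 1 UMIs) where Lifr was counted.

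Stat3, the signal transducer, was the most evenly spread member. Its lowest class levels among the 5 were 96.4 and 84.3 CPM in epithelial/tumour-like cells and its highest were 369 and 269 CPM in T-like cells and 319.8 and 320.5 CPM in neutrophil-like cells. None of its 5 ratios was past 1.5-fold. They ran from -0.46 (-0.65 to -0.26) in T-like cells to 0.23 (0.11 to 0.35) in fibroblast-like cells, and those of monocyte/macrophage-like and neutrophil-like cells were 0.01 and 0.00.

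Socs3, the gene for the inhibitor that STAT3 induces, varied more. In neutrophil-like cells the control level was 306 CPM (269.9 to 347), the knockout level 580.3 CPM (513 to 654), a log2 ratio of 0.92 (0.67 to 1.17). Within cluster 117 it was at 689 and 808 CPM (0.23, -0.06 to 0.53) and within cluster 106 at 494 and 481 CPM. The class ratio was 0.17 with these clusters weighted alike and 0.30 after thinning to 2000 UMIs, both under the size rule. In monocyte/macrophage-like cells it was at 132 and 196 CPM (0.57, 0.37 to 0.78), most apart in cluster 114, led by Arg1 and Fcgr1 (181 and 321 CPM, 0.83, 0.26 to 1.45). In fibroblast-like cells the levels were 98.1 and 108 CPM (log2 ratio 0.14, -0.01 to 0.29). Without the highest cell of each library the ratio was 0.19 (0.04 to 0.34). Fibroblast cluster 212 stood apart from that, with 59.3 and 185 CPM (1.64, 0.81 to 2.62), and so did cluster 206, with 18.6 and 48.9 CPM (1.40, 0.29 to 2.70). Myofibroblast-leaning fibroblasts differed the other way, with 119 and 70.5 CPM (-0.76, -1.18 to -0.35). A single control cell held 51 of the 155 control UMIs of this group, and the ratio without it was not computed. Most control cells of the group lay in cluster 200 (29 control and 1 knockout), most knockout cells in cluster 214 (16 and 77). Tumour-cell Socs3 was at 58.9 and 53.3 CPM (-0.14, -0.19 to -0.09). In T-like cells it was at 11.99 CPM from 8 UMIs and 28.0 CPM from 191 UMIs (1.22, 0.21 to 2.46).

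T-like cells carried Il6ra in the knockout library at 29.6 CPM (25.6 to 34.0, 202 UMIs) and in the control library at 10.49 CPM (4.22 to 21.6, 7 UMIs), a log2 ratio of 1.50 (0.43 to 2.83). Of the 202 UMIs, 137 lay in cluster 111, whose leading genes include Lef1 and Tcf7, marks of naive and memory T cells. That cluster had 24 control cells, with 0 UMIs, and 469 knockout cells, at 93.6 CPM. Of the 7 control UMIs, 4 lay in 1 cell, and without the highest cell of each library the ratio was 2.67 (1.10 to 4.96). Il6st in T-like cells was at 30.0 and 41.2 CPM (0.46, -0.20 to 1.19).

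Downstream of the receptors, some acute phase genes had ratios further from equality than any of the 10 members. Of 25 genes taken as associated with STAT3, 21 had enough UMIs in fibroblast-like cells, 2 were past 1.5-fold higher and 5 lower, with a median log2 ratio of -0.17 against 0.13 over all genes. Over all genes 20.9% were higher and 11.8% lower. Saa3, a serum amyloid A gene, was at 2397 and 123 CPM (-4.28, -4.38 to -4.18), Timp1, a metalloproteinase inhibitor gene, at 2147 and 269.5 CPM (-2.99, -3.06 to -2.92), and Ier3 at 208 and 40.5 CPM (-2.36, -2.55 to -2.17). Over shared clusters these ratios were -2.06, -0.68 and -0.48. The 2 higher genes were the haptoglobin gene Hp (320 and 616 CPM) and Lbp (234 and 372 CPM), so acute phase genes went both ways within the class. Saa3 was among the leading genes of cluster 201 (160 control and 16 knockout cells), Hp among those of cluster 205 (75 and 111). Whether they went both ways in the same cells was not tested. Saa3 was also lower in epithelial/tumour-like cells (5.47 and 0.841 CPM, where the 7 fibroblast markers summed to 87.6 and 31.6 CPM, whose part was not tested) and monocyte/macrophage-like cells (399.8 and 96.96 CPM). In the latter the fibroblast markers summed to 108 and 62.4 CPM and the 7 epithelial/tumour markers to 474 and 221 CPM, whose part was not tested either. A single cell held 28.7% of the control and another 29.8% of the knockout Saa3 UMIs of that class, and 46.5% and 16.9% in the tumour class. Without them the ratios were -2.07 and -2.06. Among epithelial/tumour-like cells 1 of 23 list genes was higher and 3 lower, beside 9.78% and 6.99% of all genes. The higher one was Reg3b, at 4.503 and 28.1 CPM (2.64, 2.52 to 2.76), while its relative Reg3g was lower, at 3.91 and 1.69 CPM (-1.21, -1.46 to -0.96). Single cells held 49.9% of the control and 45.1% of the knockout Reg3b UMIs, and 34.6% and 28.1% of those of Reg3g. Without the highest cells the ratios were 2.77 and -1.07.

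In neutrophil-like cells 4 of 17 of these genes were higher and 3 lower, beside 16.4% and 21.4% of all genes. Icam1 was at 71.5 and 182 CPM and Ier3 at 1188 and 2410 CPM, whereas Lcn2, which neutrophils store in granules, was at 4803 and 2206 CPM. Of the 13 list genes named for this class over all lists, 2 kept their direction past 1.5-fold when clusters 106 and 117 were weighted alike, against 8 of 20 in fibroblast-like cells, 10 of 13 in epithelial/tumour-like cells, 5 of 10 in monocyte/macrophage-like cells and 6 of 6 in T-like cells. Among monocyte/macrophage-like cells 2 of 21 STAT3-associated genes were higher and 3 lower, beside 8.56% and 10.8% of all genes. In T-like cells 3 of 17 were higher and 2 lower, beside 16.4% and 12.3% of all genes. Fos in T-like cells was at 59.9 and 132 CPM (1.14, 0.68 to 1.63).

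Signal transducers showed smaller differences. None of 10 was past 1.5-fold in epithelial/tumour-like cells, where 9.78% of all genes were higher and 6.99% lower. In fibroblast-like cells Gab1 (25.1 and 49.1 CPM) and Sos1 (28.7 and 44.2 CPM) were among 3 higher, but over shared clusters their ratios were 0.13 and 0.09. Jak2 was the only one of 10 past the rule in monocyte/macrophage-like cells (67.5 and 102 CPM, 0.59, but 0.44 with clusters weighted alike). Tyk2 was the only one of 9 in T-like cells (48.0 and 27.8 CPM). Of all genes, 8.56% were higher and 10.8% lower in monocyte/macrophage-like cells, and 16.4% and 12.3% in T-like cells. Of 7 negative regulators in fibroblast-like cells, Cish (9.67 and 2.08 CPM) and Socs1 (30.9 and 18.2 CPM) were lower, and Socs2 (36.9 and 60.3 CPM) and Pias1 (45.1 and 72.9 CPM) higher. Over shared clusters Cish and Socs2 were at -0.03 and -0.04. In neutrophil-like cells Socs1, Ptpn1 and Ptpn2 were the 3 of 6 that were higher (log2 ratios 1.17, 0.69 and 0.69), and 1 was lower. With clusters 106 and 117 weighted alike those 3 genes were at 0.26, 0.33 and 0.34, under the size rule. Over all genes 16.4% were higher and 21.4% lower in neutrophil-like cells, and 20.9% and 11.8% in fibroblast-like cells. Of the 3 genes for shedding of receptors, Rhbdf2, which brings the protease ADAM17 to the surface, was at 9.42 and 1.19 CPM in fibroblast-like cells (-2.98, -4.25 to -1.93). Adam17 itself was at 143 and 284 CPM in neutrophil-like cells (0.99, 0.62 to 1.36), and at 0.39 over clusters 106 and 117.

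Genes known to induce the ligands differed by class. In neutrophil-like cells 4 of 8 were higher and 0 lower, beside 16.4% and 21.4% of all genes. Tnf was at 219 and 630 CPM there (1.52, 1.25 to 1.80), and its ratio was 0.85 over clusters 106 and 117. Il1a (72.7 and 206 CPM, 1.50) and Nfkb1 (139 and 259.8 CPM, 0.90) were at 0.39 and 0.57 over those clusters, under the size rule. Macrophage-like Tnf was higher (115 and 175 CPM, 0.61, but 0.30 with clusters weighted alike) and Il1a lower (77.7 and 45.6 CPM). In fibroblast-like cells 3 of 7 were lower, among them the IL-1 receptor gene Il1r1 (434 and 233 CPM) and Ptgs2 (11.9 and 4.17 CPM), though Il1r1 was 0.25 on the log2 scale over shared clusters, the other direction. Il1b was higher there (0.628 and 6.25 CPM, 5 and 42 UMIs), with 54.8% of its knockout UMIs in 1 cell. Inflammatory fibroblast genes were split, with 2 of 14 higher and 4 lower: the chemokine gene Ccl7 was at 228 and 37.9 CPM (-2.59, but -0.46 over shared clusters) and C3 at 3541 and 6874 CPM. Cxcl2 (3.52 and 28.4 CPM) depended on 1 knockout cell, and without the highest cell of each library its log2 ratio was 0.39 in place of 3.02. The summed neutrophil markers of fibroblast-like cells were 61.3 and 178 CPM, which moved with Il1b and Cxcl2, and their part in these values was not tested. Myofibroblastic genes were lower in 6 of 12 and higher in 1, with a median log2 ratio of -0.71. Of all genes of fibroblast-like cells 11.8% were lower and 20.9% higher, with a median of 0.13. The lower myofibroblastic genes were led by Lrrc15 (16.3 and 1.64 CPM), Acta2 (167 and 29.0 CPM) and Tnc (251 and 60.6 CPM). Over shared clusters these 3 were at -0.44, -1.70 and -2.11.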

How the data were processed

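The authors deposited raw UMI counts per gene and cell barcode, without normalisation. Per the file headers they were written by Cell Ranger 8.0.0, whereas the submitters' processing notes name Cell Ranger 3.1.3 and mm10. Barcodes needed 500 genes or more and a mitochondrial share of 15% or less, and Scrublet doublets (1.27% of control and 3.16% of knockout cells passing) were removed. Clustering used scanpy 1.11.5 and leidenalg 0.10.2 with 2000 variable genes (never the members), 30 components, 15 neighbours and resolution 1. Leukocyte and stromal clusters were clustered again. No batch correction was applied. Clusters were named from marker lists, and a mixed-lineage rule, set after the clusters were seen, left 213 control and 195 knockout cells unnamed.

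Barcodes, gene names and the library assignment were read from the deposited companion files. The alternatives tried are in the closing section. The 2 libraries have no replicates, so no test was made. List genes were named by size, the 3 largest ratios per list and class past 1.5-fold whose 95% interval excludes 1, and others, chosen after their values were seen, are named for a level or to complete a count. Genes most like a member had the highest Pearson correlation of log2(CPM + 1) over 23 class and library values, given as a description, since values share libraries. The ratio code was tested on simulated data. Members and lists were chosen with earlier results of these data known. Numbers used Python 3.11.15, scipy 1.17.1 and pandas 2.3.3. Depth limits the precision: a count of 0 allows up to 0.0200 CPM in control epithelial/tumour-like cells and 6.50 CPM in knockout neutrophil-like cells. Some list genes are not reported here.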

Additional observations from a re-analysis of the deposited data

Results flagged for a closer look

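For 6 genes the log2 ratio, knockout over control, had opposite signs in 2 cell classes. The libraries are single, so none of these differences was tested. Il6 differed most, by 2.91 being 1.39 in the tumour class and -1.52 in monocyte/macrophage-like cells, from 30 and 28 UMIs. The tumour-class value rests on a share of cells that is not read as expression, and it turned to -0.60 with cells thinned to 2000 UMIs. Lifr differed by 2.54 between fibroblast-like (2.03) and epithelial/tumour-like cells (-0.51). Il6ra differed by 1.81 between T-like (1.50) and epithelial/tumour-like cells (-0.32), and Socs3 by 1.37 between the same classes (1.22 and -0.14). Osm differed by 1.37 between neutrophil-like (1.01) and monocyte/macrophage-like cells (-0.36). Il6st differed by 1.16 between fibroblast-like (0.57) and monocyte/macrophage-like cells (-0.59).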

How the results depend on the processing

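No paired analysis was possible because each genotype has 1 library. Of 144 alternative values of the 12 ratios past 1.5-fold, 139 kept their sign and 120 also stayed past 1.5-fold. Leaving out the highest cell, weighting clusters alike and leaving out shared barcodes were chosen after seeing the data. Values below are log2 ratios, and where no construction is named the cause was not tested. With cells thinned to 2000 UMIs, the direction turned for Il6 (-0.60) and Il11 (0.10) in epithelial/tumour-like and for Il11 (0.10) and Il6ra (-0.028) in fibroblast-like cells. Thinning also gave 0.25 for Lif and -0.42 for Il6st in epithelial/tumour-like cells, 0.39 for Il6st in fibroblast-like cells, and 1.26 for Osm and 0.30 for Socs3 in neutrophil-like cells. Weighting clusters alike turned Il6 (-0.20) and Il6ra (-0.35) in fibroblast-like cells, where Il6st was 0.050 and Lifr 0.92. It gave -1.56 for Il11, -0.30 for Lif and -0.17 for Il6st in epithelial/tumour-like cells, 0.34 for Socs3 in monocyte/macrophage-like cells, and 0.39 for Osm and 0.17 for Socs3 in neutrophil-like cells. A mean over cells gave -0.021 for Il11 and -0.40 for Il6st in epithelial/tumour-like cells, 0.23 for Il6ra, 0.40 for Il6st and 1.63 for Lifr in fibroblast-like cells, 0.52 for Lifr in monocyte/macrophage-like cells and 0.53 for Osm in neutrophil-like cells. Without the highest cell Il11 was -0.20 in epithelial/tumour-like cells, and their share of control Il11 UMIs was 97.1%. Median-of-ratios scaling gave 0.41 for Il6st and 0.22 for Osmr in fibroblast-like cells. The strict cell filter, which removes shallow cells, left 75 control and 44 knockout neutrophil-like cells and gave 2.22 for Osm in them. Neutrophil-like cells then held 17.9% of control and 33.5% of knockout Osm UMIs, monocyte/macrophage-like cells 43.8% and 40.6%. Under it epithelial/tumour-like cells held 94.5% of control Il11 and 90.9% of control Lif UMIs. With called doublets kept, the neutrophil-like Osm shares were 50.5% and 53.9%. Members higher numbered 13 and lower 8 with at least 1 UMI, and 2 were lower with at least 100 UMIs. No unnamed cluster had epithelial/tumour as its best class, so adding such clusters gave no value.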
